A study of Homo sapiens with 15 samples.

Results

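The 7 genes described here encode secreted glycoproteins of the extracellular matrix: thrombospondin 1 (THBS1), thrombospondin 4 (THBS4), osteopontin (SPP1), tenascin C (TNC), tenascin N (TNN), fibronectin (FN1) and reelin (RELN). They were chosen by name from the 730 endogenous genes of a NanoString cancer pathway panel, and every value was set against the negative control probes of its own sample. HCT116 cells, an established human colorectal carcinoma line, had been treated for 24 h with 40 µM of thymoquinone (TQ), a quinone from black cumin oil, or with 15 µM of 5-fluorouracil (5-FU), a drug that blocks thymidylate synthesis. The other samples received both drugs together (Combi, 35 µM of each), received the SARB hybrid, which joins TQ and 5-FU in 1 molecule, at 35 µM, or stayed untreated as the control. Each of the 5 groups held 3 samples. All came from 1 cell line, and the sources used here do not say whether the untreated control received the solvent of the compounds or whether the 3 samples of a group were separate cultures, so p-values measure the spread between these samples.

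Most of these proteins are matricellular: they are laid down in the matrix but mainly signal to cells through integrins and other receptors rather than carry load. Thrombospondin 1 inhibits angiogenesis and releases transforming growth factor beta from its latent form, osteopontin and fibronectin carry an arginine-glycine-aspartate motif that integrins bind, and tenascins modulate adhesion to fibronectin. In the intestine much of this matrix is made by stromal cells, although carcinoma cells can also transcribe several of the genes.

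The promoters of the 3 members on which the results turn are shown because they differ in composition. The sequences are the 250 bases before the annotated start of each gene, read 5′ to 3′ on the strand of the gene, from RefSeq annotation of GRCh38.p14. THBS1 lies on the plus strand (chr15:39580829-39581078), SPP1 on the plus strand (chr4:87975464-87975713) and FN1 on the minus strand (chr2:215436069-215436318). Capitals mark matches, on either strand, to any of 6 motifs: the TATA box (TATAAA), the CCAAT box (spelled as named), the AP-1 element (TGANTCA), the cyclic AMP response element (TGACGTCA), the GC box (GGGCGG) and the E-box (CACGTG).
THBS1: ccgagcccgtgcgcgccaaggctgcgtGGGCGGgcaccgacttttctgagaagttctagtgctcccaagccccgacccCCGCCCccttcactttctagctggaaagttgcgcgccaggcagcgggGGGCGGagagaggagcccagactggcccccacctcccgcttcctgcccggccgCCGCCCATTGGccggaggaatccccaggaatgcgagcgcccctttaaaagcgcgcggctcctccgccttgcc
SPP1: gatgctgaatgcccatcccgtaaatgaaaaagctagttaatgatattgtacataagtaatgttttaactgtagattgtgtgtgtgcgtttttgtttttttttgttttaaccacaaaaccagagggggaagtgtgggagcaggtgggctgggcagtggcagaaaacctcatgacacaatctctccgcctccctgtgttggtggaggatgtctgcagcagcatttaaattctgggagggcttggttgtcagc
FN1: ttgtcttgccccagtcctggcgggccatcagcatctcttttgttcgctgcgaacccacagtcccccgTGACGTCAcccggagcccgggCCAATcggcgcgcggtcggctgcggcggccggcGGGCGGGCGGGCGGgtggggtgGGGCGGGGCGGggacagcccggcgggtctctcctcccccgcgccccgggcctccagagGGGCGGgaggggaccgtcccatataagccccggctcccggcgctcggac
The THBS1 stretch had a GC content of 69.6% and held 4 GC boxes and 1 CCAAT box on the opposite strand, adjoining the GC box nearest to the start. The FN1 stretch reached 76.4% and held 6 GC boxes, some of which overlap, with 1 CCAAT box and 1 cyclic AMP response element. The SPP1 stretch had 44.8% and none of the 6 motifs as spelled, against a median GC content of 58.0% over 35116 promoters of the same length. Among those promoters, GGGCGG occurred in 42.6%, CCAAT in 32.0%, TATAAA in 10.7%, TGANTCA in 6.57%, CACGTG in 6.34% and TGACGTCA in 1.65%. A match describes letters only, and no binding was measured.

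The assay counts color-coded probes bound to their transcripts, and no amplification is involved. The endogenous genes summed to 135017 to 607782 counts per sample, and the 8 negative probes averaged 3.12 to 16.4 counts. A count above the mean plus 2 SD of the negative probes of its sample (6.23 to 26.4 counts) is called above background. Scaled counts are raw counts times a factor of 0.437 to 2.18 per sample, which brings the 40 housekeeping genes to 1 common geometric mean. The samples ran on 3 cartridges: control replicate 1 with all TQ, 5-FU and SARB samples on the first, control replicates 2 and 3 with Combi replicate 1 on the second, and the other Combi samples on the third. The 7 epithelial markers on the panel were above background in all 15 samples, among them CDH1, the epithelial cadherin. Of 5 fibroblast markers, COL1A1 was above background in 13 samples and COL1A2, COL3A1, PDGFRA and PDGFRB in 0. The summed scaled counts of those 5 spanned 56.4 to 65.7 in control, 65.6 to 66.0 in Combi and 54.4 to 75.4 in 5-FU, with wider ranges of 29.6 to 78.3 under TQ and 34.6 to 86.3 under SARB. RNA came from whole cultures, so fewer transcribing cells and less RNA per cell cannot be told apart.

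The 7 genes fell into 3 classes of detection. THBS1 was above background in 15 of 15 samples, at 4.67 to 93.7 times the mean of the negative probes. FN1 was above background in 14 samples, SPP1 in 11 and TNC in 8, with highest ratios of 10.3, 9.38 and 4.00. THBS4 passed in 3 samples, with ratios of 0.66 to 2.56, while TNN and RELN passed in 0 samples and never exceeded 1.19 times the negative mean. In all, 51 of 105 values were above background. Fold changes are given only where all 3 samples of at least 1 of the compared groups were above background, which left 15 of them.

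THBS1 was upregulated under all 4 treatments, the only one of the 7 genes for which each comparison with control was called. The control samples had 99.9, 75.3 and 88.1 scaled counts for replicates 1 to 3, from raw counts of 65, 56 and 59. TQ gave 409, 295 and 411, and 5-FU gave 203, 225 and 224. Combi gave 316, 259 and 246, and SARB gave 322, 283 and 248. The lowest treated sample, 5-FU replicate 1, was thus above the highest control sample, and the TQ samples other than replicate 2 were the highest of all. Group means were 87.8 ± 12.3 for control, 372 ± 66.1 for TQ, 284 ± 36.9 for SARB, 274 ± 37.2 for Combi and 217 ± 12.2 for 5-FU (SD, n = 3 each).

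Calls rest on edgeR's quasi-likelihood test over the 730 genes with Benjamini-Hochberg adjustment, and need an adjusted p not above 0.05 together with a 1.5-fold change or more. The log2 fold change of THBS1 was 2.07 in TQ (standard error 0.174, adjusted p = 1.84e-08), where 3.42% of all genes were called higher and 6.16% had treated samples that were all above the control. It was 1.31 in 5-FU (0.176, adjusted p = 6.71e-06), where 10.1% were called higher and 16.3% lay wholly above the control. Combi gave 1.64 (0.171, adjusted p = 1.72e-07) beside 13.6% of all genes called higher (19.3% wholly above the control), and SARB gave 1.70 (0.172, adjusted p = 1.29e-07) beside 8.63% (13.2%). Ordered by log2 fold change among the 730 genes, THBS1 ranked 4 under TQ, 10 under SARB, 16 under Combi and 23 under 5-FU. These 4 comparisons share the 3 control samples, and the doses differ between TQ, 5-FU and Combi, so their values stand side by side without a test between them.

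The rise of THBS1 was also seen between samples of 1 cartridge. On the first, control replicate 1 had 99.9 scaled counts and the TQ, 5-FU and SARB samples 203 to 411, and on the second, Combi replicate 1 had 316 against 75.3 and 88.1 in control. With housekeeping scaling all 730 genes had a median log2 fold change of -0.47 under TQ, -0.41 under SARB, -0.27 under 5-FU and -0.10 under Combi. TMM normalization, a scaling to the bulk of the genes, brought these medians to between -0.07 and -0.02 and gave THBS1 values of 2.51 in TQ, 2.04 in SARB, 1.50 in 5-FU and 1.72 in Combi.

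**Figure D1:**
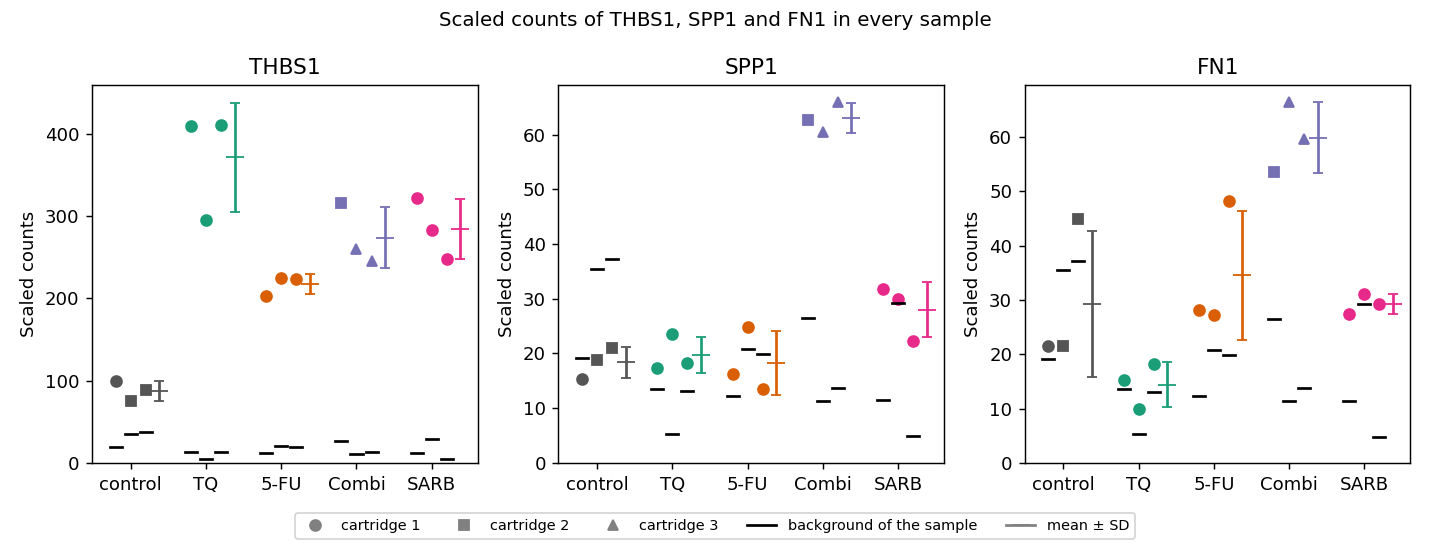
Scaled counts (linear axis from 0) of THBS1, SPP1 and FN1 in each sample of the 5 groups, with the group mean ± SD (n = 3), the scaled background of each sample as a black bar and the cartridge as marker shape. The 3 control samples of THBS1 (75.3 to 99.9) lie under all 12 treated samples, and SPP1 is highest in Combi (60.4 to 66.0).

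SPP1, which encodes a secreted phosphoprotein that binds integrins and CD44, was upregulated in Combi. The control samples had 15.4, 18.8 and 20.9 scaled counts for replicates 1 to 3, and 0 of them were above background. TQ gave 17.4, 23.6 and 18.2, and 5-FU gave 16.3, 24.8 and 13.6, with 3 and 2 samples above background. Combi gave 62.6, 60.4 and 66.0, from raw counts of 62, 129 and 124, and all 3 were above background. All Combi samples were thus above every sample of the other groups, while TQ and 5-FU overlapped with the control. SARB gave 31.7, 30.0 and 22.3, all above background and above the 3 control samples. The means were 63.0 ± 2.82 for Combi, 28.0 ± 5.00 for SARB, 19.7 ± 3.35 for TQ, 18.4 ± 2.80 for control and 18.2 ± 5.87 for 5-FU (SD, n = 3).

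The log2 fold change of SPP1 was 1.77 in Combi (standard error 0.308, adjusted p = 0.000116), ranking 12 of 730. Because the control samples lay within background, the size depended on how background was treated: 3.35 on the deposited background-subtracted values and 1.11 with counts under 20 set to 20. No fold change is given for 5-FU. In TQ the value was 0.15 (95% interval -0.558 to 0.855, adjusted p = 0.741), with 0.66 after TMM normalization and 1.41 on the deposited values, none of them called. In SARB it was 0.58 (-0.0855 to 1.25, adjusted p = 0.155) and not called, although the groups did not overlap, which held for 13.2% of all genes in that direction. TMM normalization gave 0.93 for SARB and an adjusted p of 0.0217, past the threshold. On the second cartridge Combi replicate 1 had 62.6 scaled counts against 18.8 and 20.9 in control.

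FN1, whose product fibronectin assembles into fibrils on which cells spread, had lower scaled counts in TQ and was upregulated in Combi. The control samples had 21.5, 21.5 and 44.8 scaled counts, and replicate 2 was not above background. TQ gave 15.2, 9.86 and 18.2, and 5-FU gave 28.2, 27.2 and 48.2. Combi gave 53.5, 66.5 and 59.6, and SARB gave 27.4, 31.2 and 29.3. All TQ samples lay under and all Combi samples over the control, whereas 5-FU and SARB overlapped with it. Control replicate 3 stood above the other control samples, and the means were 59.9 ± 6.50 for Combi, 34.5 ± 11.8 for 5-FU, 29.3 ± 1.87 for SARB, 29.3 ± 13.5 for control and 14.4 ± 4.22 for TQ (SD, n = 3).

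FN1 fell by 1.11 on the log2 scale in TQ (standard error 0.387, adjusted p = 0.0333), where 21.6% of all genes were called lower and 39.5% lay wholly below the control. The call was lost under 7 of 23 alternatives. These were TMM normalization (-0.63, adjusted p = 0.183), DESeq2's own size factors (-0.59), the cartridge block (-0.68) and counts under 20 set to 20 (-0.43). The others were limma on the deposited background-subtracted values (-0.65, adjusted p = 0.316) and 2 fits with 1 sample left out. Without control replicate 3 edgeR gave -0.67 (adjusted p = 0.239), and without TQ replicate 2 it gave -0.79 (adjusted p = 0.223). The scaled mean of the negative probes was also lower in TQ, at 5.46 ± 2.01 against 14.9 ± 4.09 in control (SD, n = 3), a log2 difference of -1.45, and its part in the lower FN1 value was not tested. As ratios to the negative mean of the same sample, FN1 was not lower in TQ, at 2.24 to 3.13 against 1.33 to 2.45 in control. Under Combi FN1 was higher by 1.04 on the log2 scale (adjusted p = 0.0181, standard error 0.325, rank 54), and with cartridge as a block it was 0.70 (adjusted p = 0.443), a fit in which Combi replicate 1 alone stands against control replicates 2 and 3. Leaving out control replicate 1 or 2 gave 0.87 and 0.85, and leaving out Combi replicate 2 or 3 gave 0.95 and 1.04, all without a call, as was 0.82 (adjusted p = 0.0683) with counts under 20 set to 20. In 5-FU it was 0.24 (95% interval -0.481 to 0.953) and in SARB 0.00 (-0.703 to 0.707), neither called.

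TNC, a tenascin of wound and tumor stroma, was near background in every group. Its scaled counts were 27.7, 16.1 and 14.9 in control, 15.2, 11.0 and 19.7 in TQ, and 18.5, 11.8 and 21.0 in 5-FU. In Combi they were 10.1, 10.8 and 9.05, and in SARB 13.7, 21.6 and 11.4. The raw counts of Combi, 10, 23 and 17, lay within the range of all samples, 7 to 26. The 3 Combi samples were within background, as were 2 control samples, so only TQ had all 3 samples above it. The log2 fold change in TQ was -0.40 (95% interval -1.32 to 0.526, adjusted p = 0.482), and TMM normalization turned it to 0.04.

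For THBS4, TNN and RELN no fold change is given. THBS4, a thrombospondin of tendon and muscle matrix, had raw counts of 10, 13 and 15 in control, 8, 9 and 10 in TQ and 11, 11 and 10 in 5-FU. Combi gave 16, 29 and 23, and SARB gave 8, 8 and 9. The 3 samples above background were TQ replicates 1 and 3, at 2.56 and 2.35 times the negative mean, and Combi replicate 2, at 2.11 times. RELN, which guides neuron positioning in the developing brain, had 8, 10 and 13 raw counts in control, 3, 3 and 4 in TQ, 5 in each 5-FU sample, 10, 12 and 10 in Combi and 5, 9 and 5 in SARB. The RELN counts of TQ and 5-FU were under those of all control and Combi samples before scaling, but all were within background. Divided by the negative mean of the same sample, RELN in TQ (0.52 to 0.96) overlapped with control (0.83 to 1.19) and Combi (0.61 to 0.87). The 5-FU ratios (0.5 to 0.73) overlapped with Combi and stayed under control. The part of background in these raw differences was not tested. TNN, a tenascin of developing bone, had 8, 4 and 5 raw counts in control, 1, 2 and 5 in TQ, 4, 3 and 4 in 5-FU, 9, 15 and 18 in Combi and 2, 9 and 1 in SARB, and it was not called in any of the 5 comparisons, although limma on the deposited values called it lower in SARB. The test called RELN lower in TQ (adjusted p = 0.0258) and in SARB (adjusted p = 0.0385), and THBS4 lower in SARB (adjusted p = 0.0201); in each of these comparisons 0 samples of either group were above background for the gene called. There the scaled mean of the negative probes was itself lower than in control, by a log2 difference of -1.45 in TQ and -0.93 in SARB, and its part in these calls was not tested.

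Counting all 7 genes, 3 were called in TQ (THBS1 higher, FN1 and RELN lower) where 25.1% of all genes were called in either direction. In 5-FU 1 was called (THBS1) beside 20.3%, and in Combi 3 were called, all higher (THBS1, SPP1 and FN1), beside 20.1% in either direction. In SARB 3 were called, THBS1 higher and THBS4 and RELN lower, beside 28.6%. The median log2 fold change of the 7 genes was -0.72 under TQ, -0.37 under SARB, -0.19 under 5-FU and 0.03 under Combi, against the medians of all genes given above. Each is the value of a gene for which no fold change is given there: THBS4 in TQ, TNC in SARB and 5-FU, and TNN in Combi. These medians thus rest on counts near background.

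**Figure D2:**
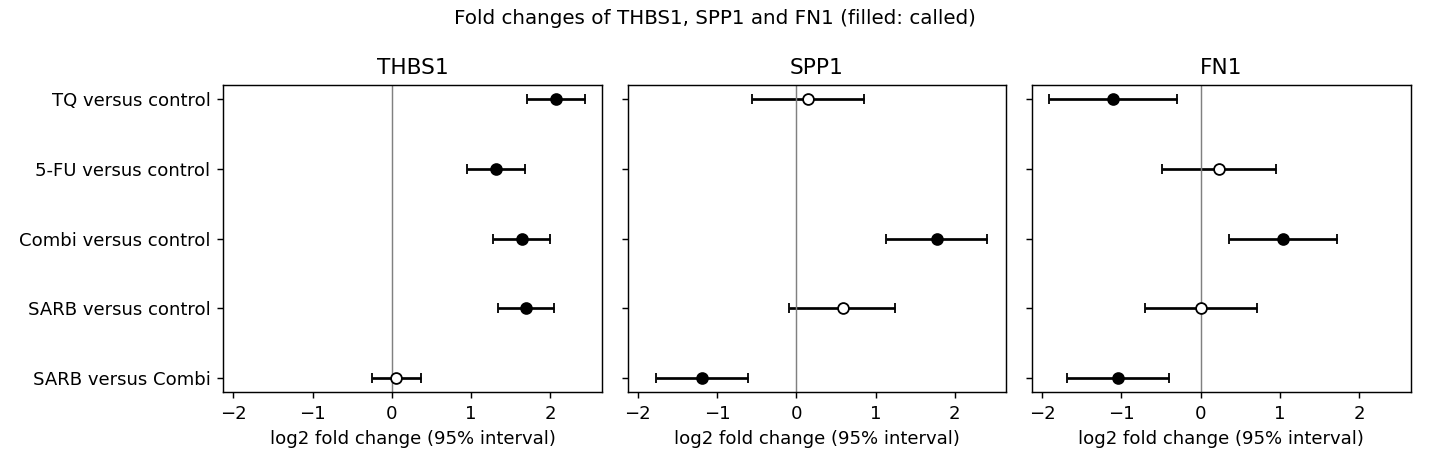
Log2 fold changes of THBS1, SPP1 and FN1 in the 5 comparisons, as points with 95% intervals from edgeR's quasi-likelihood fit (n = 3 per group), filled where called. SPP1 in 5-FU has no point because no fold change is given. THBS1 lies at 1.31 to 2.07 in the 4 comparisons with control and SPP1 at 1.77 in Combi.

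SARB and Combi were the only drug treatments given at matched doses, 35 µM of the hybrid against 35 µM of each drug as separate molecules. SPP1 and FN1 were lower in SARB, and THBS1 was not called. The log2 difference, SARB minus Combi, was -1.19 for SPP1 (standard error 0.279, adjusted p = 0.00531) and -1.04 for FN1 (0.307, adjusted p = 0.0243), and for neither gene did the groups overlap, as for 28.9% of all genes in that direction. These were 2 of 7 members, where 12.2% of all genes were called in either direction and 11.2% lower. For THBS1 the difference was 0.06 (95% interval -0.251 to 0.365, adjusted p = 0.809). No cartridge held both groups, so cartridge and treatment cannot be told apart directly. A cartridge block links them only through control samples: SARB against control replicate 1, Combi replicate 1 against control replicates 2 and 3. With that block the values were -0.81 for SPP1 and -0.26 for FN1, neither called. The FN1 call was also lost with DESeq2's own size factors (-0.70), without Combi replicate 2 (-0.95) or 3 (-1.04) and without SARB replicate 1 (-0.99) or 3 (-1.04), whereas SPP1 was called with any 1 sample left out. Only 1 pair of compounds was compared.

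**Figure D3:**
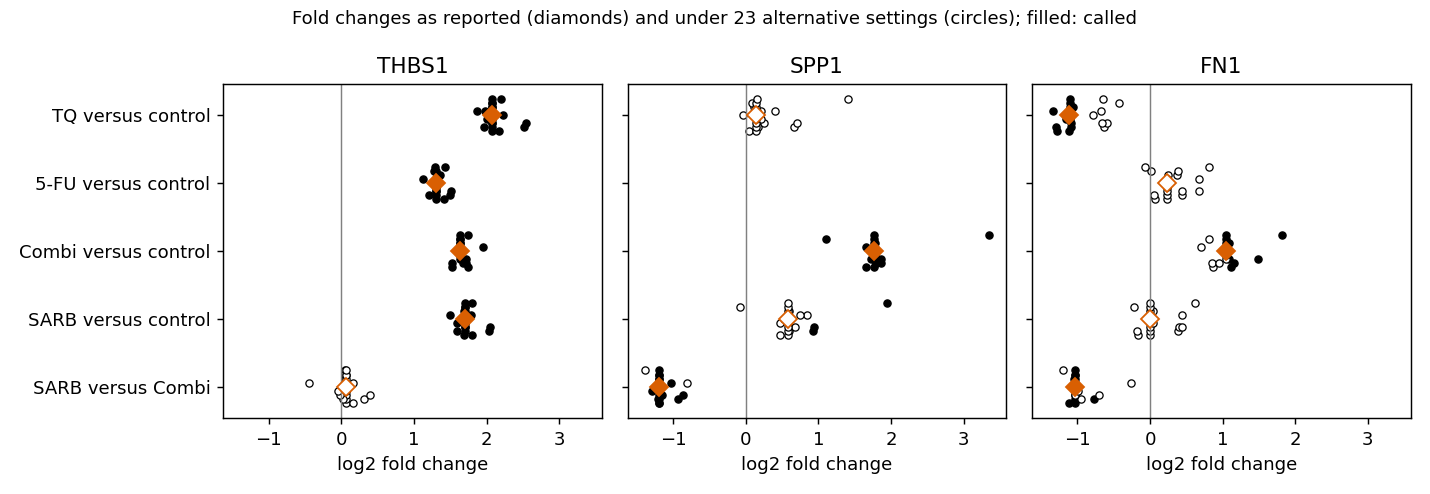
Log2 fold changes (horizontal axis) of THBS1, SPP1 and FN1 in each comparison as reported (diamonds) and under 23 alternative settings (circles), filled where called. THBS1 stays between 1.12 and 2.55 in the comparisons with control, while FN1 in TQ spans -1.34 to -0.43, with filled and open circles.

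Integrins are heterodimeric receptors through which cells hold on to fibronectin, osteopontin and laminins, and 11 integrin genes were on the panel. In 5-FU and in Combi 4 of the 11 were called higher (36.4%, beside 10.1% and 13.6% of all genes), and ITGA3, the laminin-binding alpha 3 subunit, had log2 fold changes of 1.17 and 1.22. In SARB 2 of the 11 were called higher, ITGA6 and ITGA3 (18.2%, beside 8.63% of all genes). The ITGA3 value there was 0.76, called under all 23 alternatives. Another 2 were called lower in SARB, ITGA8 and ITGB8, beside 146 of 730 genes. TMM normalization called 4 of the 11 higher in SARB, beside 120 of 730 genes, and 0 lower. ITGB4, which anchors epithelial cells to the basement membrane, had 1.16 in 5-FU, 1.45 in Combi and 0.29 in SARB, the last not called. ITGA2, a collagen receptor subunit, had 0.63, 1.49 and 0.54 in the same order. Its SARB value was not called, and its 5-FU call was lost with the cartridge block (0.87), with limma (0.73), without control replicate 1 (0.53) or 2 (0.37) and without any 1 of the 5-FU replicates (0.57 to 0.67).

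In TQ 8 of the 11 integrin genes were called lower (72.7%, beside 21.6% of all genes), with a median of -1.03 beside -0.47, and 4 of these had all 3 samples of TQ or control above background. ITGA3 had -0.62, ITGA2 -0.74 and ITGB4 -0.95 in TQ, each called with housekeeping scaling. All 3 of these calls were lost with TMM normalization (-0.15, -0.24 and -0.46), with DESeq2's own size factors, with the cartridge block and without control replicate 3 (-0.39, -0.27 and -0.57). In TQ, TMM normalization called 2 of the 11 lower, ITGA7 and ITGB7, named after their values were seen and neither above background in all samples of a group compared. DESeq2 with its own size factors called 0 in TQ, with 4 lower at an unadjusted p under 0.05, and edgeR with the cartridge block called 0, with 5 lower at that p. In SARB against Combi ITGA2 (-0.96) and ITGB4 (-1.16) were called lower, and with the cartridge block these were -0.40 and -0.43 and not called.

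Of 26 other matrix genes, 4 were called higher in 5-FU (15.4%, beside 10.1% of all genes), 5 in Combi (19.2%, beside 13.6%) and 4 in SARB (15.4%, beside 8.63%). The list medians were 0.20, 0.13 and -0.17, beside -0.27, -0.10 and -0.41 for all genes. LAMA3 and LAMB3, chains of the laminin in the epithelial basement membrane, rose the most of these lists: LAMA3 had 3.23, 2.84 and 2.60 and LAMB3 2.91, 2.79 and 2.86 in the same order, called under all 23 alternatives. Only 1 control sample was above background for LAMA3, so the size of its changes is uncertain. Limma on the deposited values gave LAMA3 4.01, 3.58 and 3.30, and counts under 20 set to 20 gave 3.23, 2.84 and 2.60. In TQ 1 of the 26 was called higher (3.85%, beside 3.42%), LAMB3 at 1.24, and 5 were called lower (19.2%, beside 21.6%), with a median of -0.58. LAMA3 was 1 of those 5, at -0.65 in TQ (adjusted p = 0.0404 from edgeR), and its call was lost under 12 of 23 alternatives, among them TMM normalization (-0.15). For 3 of the 5 neither group had all its samples above background. COL5A1, a fibrillar collagen, was among these, and it was called lower in TQ, 5-FU and SARB with only 1 control sample above background, so no fold change is given.

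Of 5 genes for proteases that act on this matrix, 1 was called higher in 5-FU and in SARB (beside 10.1% and 8.63% of all genes) and 2 in Combi (beside 13.6%). PLAU, the urokinase that activates plasminogen, had log2 fold changes of 1.78 in 5-FU, 1.58 in Combi and 1.61 in SARB, all called, and -0.36 in TQ, not called. PLAT, the tissue activator of plasminogen, had 1.20 in Combi and -1.06 in TQ, both called. The TQ call was lost with TMM normalization (-0.55), DESeq2's own size factors (-0.51), the cartridge block (-0.10) and limma (-0.94), and without control replicate 3 (-0.59) or TQ replicate 2 (-1.08). In SARB against Combi PLAT was lower by a log2 difference of -1.60, and with the cartridge block the value was -0.43 and not called. The third named gene, MMP3, was above background in 0 samples.

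In the branch of transforming growth factor beta, which thrombospondin 1 can release, TGFB1 itself was called higher in Combi (0.99) and SARB (0.77). This was 1 of 10 genes in each (10%, beside 13.6% and 8.63% of all genes). In 5-FU TGFB1 had 0.54 (edgeR adjusted p = 0.0271), not called because it fell short of a 1.5-fold change. All 5-FU samples were above the control, as for 16.3% of all genes. The TQ value was -0.23, not called. With the cartridge block the Combi value was 0.60 and not called, while the SARB call was kept under all 23 alternatives. TGFB2 was called lower in TQ (-1.14), a call lost under 12 alternatives, among them TMM normalization (-0.62) and the cartridge block (-0.44). INHBB was called lower in TQ, with 0 control samples above background, which made 2 of 10 lower there (20%, beside 21.6% of all genes). LTBP1 was called lower in SARB, where neither group had all 3 samples above background, and TMM normalization called 0 lower there. In SARB against Combi INHBB and LTBP1 were called lower, 2 of 10 (20%, beside 11.2%), and 0 with the cartridge block.

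The genes whose pattern over the 15 samples was most like that of a member are given as a description, since all points share the same libraries and scaling. For THBS1 these were NFKBIZ, CCNE1 and TNFAIP3 (Pearson r of 0.836, 0.799 and 0.789, Spearman rho of 0.664, 0.604 and 0.568), among 598 genes. For SPP1 they were NOTCH2, ATM and LIFR (0.900, 0.859 and 0.852). For FN1 they were CDH1, DUSP4 and NOTCH3 (0.959, 0.950 and 0.934). For TNC they were RAC3, SMARCB1 and SMAD9 (0.794, 0.733 and 0.712), and for THBS4, with 3 samples above background, FGF23, FGF9 and DKK2 (0.920, 0.874 and 0.874). Between members, r was 0.594 for SPP1 and FN1, 0.297 for THBS1 and SPP1, -0.100 for THBS1 and FN1 and -0.727 for SPP1 and TNC.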

How the data were processed

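RNA of HCT116 cells (50 ng per sample) was measured on the nCounter PanCancer Pathways panel. The authors deposited raw counts per probe, normalized values made in nSolver with the geometric mean of the housekeeping genes, and their own fold changes with p-values per comparison, which were not used. The deposited normalized signal matched, within 1% for 100% of values in every library, a raw count less the negative probes' geometric mean, floored at 1, times 1 factor per library. Groups were taken from the sample titles, and cartridges from the scanner file names in the labels. Here raw counts of 730 endogenous genes were scaled to the 40 housekeeping genes and fitted for all 15 samples with group as the only term in edgeR 4.0.16 (R 4.3.3; quasi-likelihood F test, Benjamini-Hochberg over all 730 genes). Alternatives used TMM, DESeq2 1.42.0, limma 3.58.1 on the log2 of the deposited normalized signal, a filter on low counts, blocks and samples left out. The fit was tested on simulated data in which 50 genes were changed in TQ at each of 4 folds. It called 36 of 50 2-fold rises and 33 of 50 2-fold falls, so some 2-fold changes were missed. At 4-fold it called 47 rises and 43 falls, with 4 false calls among the unchanged genes. The members, gene lists and tests were chosen with earlier results of these data known, and lists are described by counts and medians. Named list genes were at most 3 per list, those called in the most comparisons with control and then by size. Likeness used log2(scaled count + 1) over genes above background in at least 3 samples. Promoters were taken by gene symbol, which gave 8 stretches for the 7 members. The transcript accession of the probe matched the RefSeq gene of that symbol for 7 of 7 members, but it did not choose the promoter.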

Additional observations from a re-analysis of the deposited data

How the results depend on the processing

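Across the 15 reported fold changes of members, 345 values were computed under 23 alternatives each: 306 kept direction and side of the threshold, 22 lost the call, 3 gained it and 14 turned direction. THBS1 was called under all 23 in each comparison with control, between 1.87 and 2.55 in TQ, 1.12 and 1.51 in 5-FU, 1.53 and 1.95 in Combi and 1.50 and 2.05 in SARB. SPP1 in Combi was called under all 23 (1.11 to 3.35). SPP1 in SARB gained a call with DESeq2's own size factors (0.95) and limma (1.95). Limma on deposited values ended the calls of SPP1 (-1.39) and FN1 (-1.20) in SARB against Combi and put FN1 in Combi at 1.82.

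Turned values, on the log2 scale, were as follows, and the cause was not tested. TNC in TQ was 0.0371 with TMM, 0.0715 with DESeq2's own size factors and 1.39 with limma on deposited values. With counts under 20 set to 20, SPP1 and FN1 in SARB were -0.0771 and -0.22. FN1 in SARB was -0.17, -0.19, -0.04 and -0.000943 without control replicate 1, control replicate 2, SARB replicate 2 and SARB replicate 3, and at most 0.441 with 1 sample left out. With 1 sample left out, SPP1 in TQ spanned -0.0434 (without TQ replicate 2) to 0.249, and FN1 in 5-FU spanned -0.0748 (without 5-FU replicate 3) to 0.675. THBS1 in SARB against Combi was -0.45 with the cartridge block, -0.01 without Combi replicate 3, and -0.0437 (without SARB replicate 1) to 0.165 with 1 sample left out.

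Of the 7 members, 3 were called in TQ, but 1 with TMM, DESeq2's own size factors, the cartridge block, counts under 20 set to 20 and limma, and 1 to 3 with 1 sample left out (1 without control replicate 3 or TQ replicate 2). In 5-FU 1 was called, and 1 to 2 with 1 sample left out (2 without SARB replicate 3), and in Combi 3 and 2 to 3 (2 with the cartridge block or counts under 20 set to 20, 4 with limma, RELN lower being added). In SARB 3 were called, 1 with the cartridge block or counts under 20 set to 20, 5 with limma, and 1 to 4 with 1 sample left out (1 without control replicate 3 or SARB replicate 3). In SARB against Combi 2 were called, 1 with DESeq2's own size factors, 0 with the cartridge block in edgeR (0 at an unadjusted p under 0.05) and 0 with limma (4 at that p), and 1 to 4 with 1 sample left out (4 without SARB replicate 2). Of 52 genes in the 4 lists, 23 were called in at least 1 comparison with control, 13 with the cartridge block and 13 with counts under 20 set to 20, and 16 to 28 with 1 sample left out. The share of all 730 genes under that rule was not computed, and single comparisons with control called 20.1% to 28.6% of them. Values above background numbered 53 against the highest negative probe and 76 against the negative mean, in place of 51.

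The low-count filter left out TNN and RELN. Deviations from the group mean correlated at -0.675 to 0.394 (median -0.024) in 30 pairs of same-numbered samples from different groups. In 60 pairs with other numbers they correlated at -0.465 to 0.668 (median 0.001). Each group mean rests on 3 samples, so these correlations cannot decide whether same-numbered samples were handled together. With the replicate block in edgeR, FN1 in TQ was -1.06 (adjusted p = 0.0385) and no reported fold change of a member lost its call. Among the list genes, LAMA3 in TQ did (-0.63, adjusted p = 0.053). Counts near background limit all statements on THBS4, TNC, TNN and RELN.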
